A study of Neurospora discreta with 48 samples.

Results

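The genes described are those nearest to the ends of the large scaffolds of Neurospora discreta, a filamentous ascomycete. A scaffold is a stretch of assembled genome sequence. On each scaffold with 40 or more genes in the authors' deposited table, other than scaffolds 11, 13 and 18, genes were sorted by start coordinate, and the first 10 and the last 10 were taken. Within each scaffold this rule used position only. The choice to leave out scaffolds 11, 13 and 18 was made with earlier results of these data known. The rule gave 400 genes at 40 ends of 20 scaffolds, out of 9280 genes on 64 scaffolds. The remaining 8023 genes of the same 20 scaffolds are called inner genes. The smallest scaffold kept had 42 genes, the largest 1301, and the largest scaffold under the limit had 23.

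RNA from mycelial pads, labelled mycelia and conidia, was sequenced in 48 libraries from 4 strains at 4 sampling times in a daily light cycle, with 3 libraries for each strain and time. The values come from 1 comparison made by the authors, between the African parent FGSC8831, labelled high RI, and the North American parent FGSC8578, labelled low RI, both taken 15 min into the light phase. The labels do not expand RI. All strains were grown at 25 °C in low glucose medium in cycles of 12 h light and 12 h dark, and each parent is represented by 1 strain. The table calls its arms B and A without saying which strain is which. The order of the strains in its name would make B the African parent and A the North American parent, so directions are given as B and A. Nothing in the labels says whether the 3 libraries of a strain came from separate cultures, so p-values measure only the spread between these libraries, which may be technical.

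In fungi, the regions next to the chromosome ends, the subtelomeres, are known to be rich in repeats and in genes that vary between isolates. In Neurospora crassa, a relative, much of the subtelomeric sequence carries methylation of histone H3 at lysine 27, a mark of silent chromatin. Neurospora species also have repeat-induced point mutation, a process that mutates duplicated sequence in the sexual cycle. The table does not say whether a scaffold end is a chromosome end or a break in the assembly. Its gene IDs come without names or functions, so genes are given by scaffold and position, and no markers of cell types could be looked up. No genome sequence was used here, so no sequence is shown.

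Pooled over scaffolds, the listed genes at the ends were expressed at about the level of the inner genes. Intervals of end and inner genes overlapped both in level and in the size of the difference between the parents. The level of a gene is its mean normalized count over both arms, which is not corrected for length. The lowest level among all 9280 genes was 0.145, so none was at 0 in both arms. Whether genes without counts were left out of the table is not known. Any such genes would be missing from the levels and from the positions counted from the edge. Its median was 234 normalized counts at the ends (95% interval 173 to 279) and 226 among inner genes (215 to 238). The middle 50% of end genes lay between 59.1 and 710, and that of inner genes between 54.3 and 666. Gene models were of like length, with a median span of 1700 bp at the ends and 1722 bp inside. Per kilobase of model span, the medians were 126 and 121 normalized counts at the ends and inside. In B the median level was 214 for end genes and 214 for inner genes, and in A it was 214 for end genes and 226 for inner genes. Levels below 50 were found for 92 end genes (23.0%), against 1918 inner genes (23.9%). With scaffolds weighted equally, the end median was 176 and the inner median 219, with a median ratio of 0.867. The 400 end genes held 3.33% of all normalized counts.

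The size of the difference between the arms was also close. The median absolute log2 of B over A was 0.50 at the ends (95% interval 0.45 to 0.59, 391 genes with counts in both arms) and 0.51 among inner genes (0.50 to 0.53). A difference of 2-fold or more was seen in 103 end genes (26.3%) and in 25.5% of inner genes. The median signed log2 of B over A was 0.08 at the ends and 0.03 inside. Setting both arms to the same total would add -0.17 to every log2 value and give medians of -0.10 at the ends and -0.14 inside. Of the end genes, 9 were listed at 0 in 1 arm, 7 of them in B (1.75%) and 2 in A (0.5%). Among inner genes the shares at 0 were 1.08% in B and 0.436% in A. From a 0 alone, a gene that is not expressed cannot be told apart from a gene that the strain lacks or has in a diverged form.

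A gene is called different where the adjusted p of DESeq, a count test, was under 0.05 in the authors' deposited table, adjusted over all genes. Of the 400 end genes, 68 were called (17.0%, exact binomial 95% interval 13.4 to 21.05), against 1190 inner genes (14.8%, 14.1 to 15.6) and 15.0% of all genes in the table. The end share was 2.17 percentage points higher, 0.994 points higher without scaffold 17 and 1.43 points higher without scaffold 6. With scaffolds weighted equally, the median difference over scaffolds was 4.20 points. The pooled sets mix scaffolds unequally, as the 11 scaffolds with fewer than 400 genes gave 220 of the 400 end genes. They gave 1428 of the 8023 inner genes. At the ends B was higher in 32 genes (8%) and A in 36 (9%), against a background of 6.93% and 8.03% in all genes. B was thus the higher arm in 47.1% of the calls at the ends (34.8 to 59.6) and in 47.3% of the inner calls (44.4 to 50.2). The edgeR columns of the same table called 88 end genes at an adjusted p under 0.05 (22.0%), against 21.3% of inner genes and 21.4% of all. Both tools called 66 of the end genes, DESeq alone 2 and edgeR alone 22. These intervals cover counting error only, and no test was made between the gene sets, since genes are not replicates.

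Within classes of level the sets were again close, with the widest gap in the share called from 200 to under 700. In genes with a level under 50, the median absolute log2 was 0.94 at the ends and 0.90 inside, and 12 of 92 end genes were called, against 13.8% of inner genes. From 50 to under 200 the medians were 0.54 and 0.51, with 17.7% of end genes and 17.2% of inner genes called. From 200 to under 700 the medians were 0.41 and 0.40, while 22 of 111 end genes were called (19.8%, 12.9 to 28.5), against 12.6% of inner genes (11.3 to 14.0). At 700 or more the medians were 0.46 and 0.47, with 16.8% of end genes and 16.2% of inner genes called. The direction of the calls went with level in both sets. B was the higher arm in 1, 5, 13 and 13 of the 12, 17, 22 and 17 calls at the ends, from the lowest class to the highest, and in 31.3%, 36.1%, 48.8% and 71.1% of the inner calls.

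**Figure D1:**
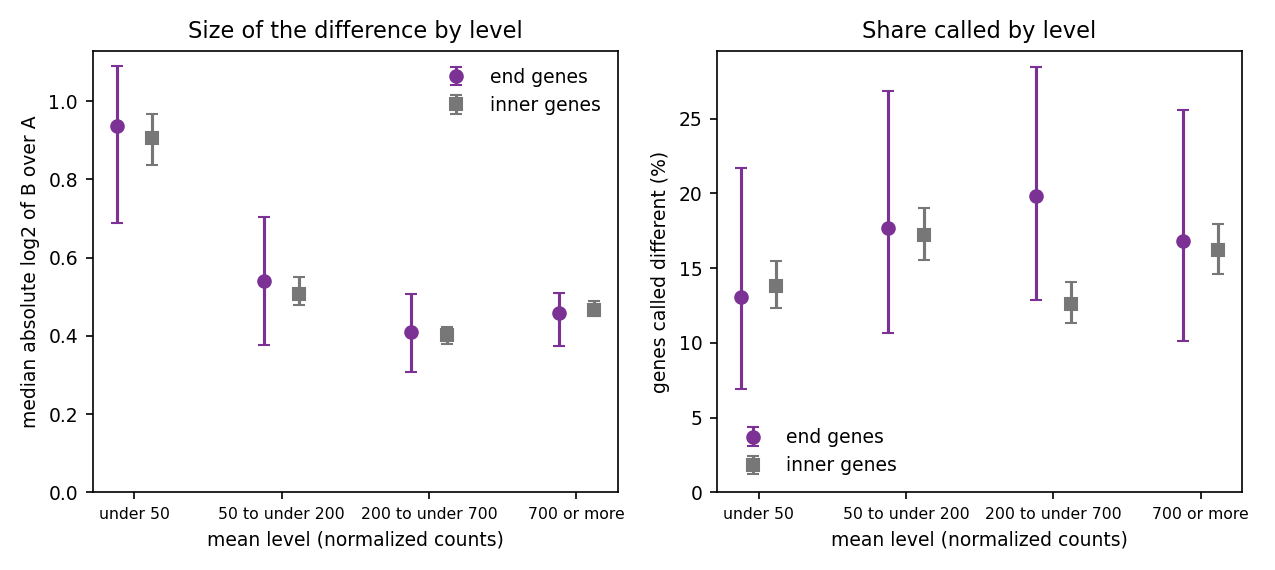
Median absolute log2 of B over A (left, for genes with counts in both arms) and percent of genes called different (right) in 4 classes of mean normalized count, for end genes (circles) and inner genes (squares); bars are 95% intervals for counting error only. End and inner genes lie close together in every class except that the share called is 19.8% against 12.6% from 200 to under 700.

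Most of the calls at the very edge were higher in A. Of the 40 outermost genes, 9 were called (22.5%, 10.8 to 38.5), with B higher in 1 and A higher in 8. In all genes 15.0% were called, 6.93% with B higher and 8.03% with A higher. At the next 9 positions, 59 of 360 genes were called (16.4%), with B higher in 31 and A higher in 28. By edgeR 12 of the outermost genes were called, with B higher in 2 and A higher in 10, and at the next 9 positions 76 of 360, of which B was higher in 39. The edgeR share was 30% at the outermost position and 21.4% in all genes. Over all 40, called or not, the mean was higher in B in 18 and lower in B in 22, or in 15 and 25 with both arms set to the same total. Their median level was 196 and their median absolute log2 was 0.68. Calls at a level under 50 were mostly higher in A among inner genes too, with B higher in 31.3%. Of the 28 outermost genes with a level of at least 50, 5 were called by DESeq, 1 of them higher in B. These counts are small, the pattern was noticed after the values had been seen, and no test of it was made.

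Most of the outermost genes higher in A had few counts in B. The first gene of scaffold 23 (163 to 1346) had 10.9 normalized counts in B and 2107 in A, as the authors' deposited table lists them. The last gene of scaffold 17 (484325 to 486820) had 4.05 in B and 534 in A there. The last gene of scaffold 10 (1344485 to 1346254) stood at 3.73 in B and 54.9 in A in the authors' deposited table. All 3 were thus detected in both arms but were low in B. The last gene of scaffold 15 (793996 to 796078) was listed at 0 in B and 42.9 in A (authors' deposited table), which is lower in B by at least 37.1-fold against a floor of 3 counts over the arm. The last gene of scaffold 6 (2290312 to 2291017) had 0.750 in B, which is 2 counts, and 14.9 in A (the authors' deposited table). Its ratio of 19.9, A over B, had an exact Poisson interval of 5.51 to 164 for the counting in B. The other 3, with smaller differences, were the last gene of scaffold 12 (1089576 to 1090198), at 27.3 in B and 160 in A, and the first genes of scaffold 17 (37299 to 38265), at 11.9 and 35.6, and scaffold 6 (4515 to 7930), at 101.01 and 364, all from the authors' deposited table. The single outermost gene called higher in B was the last of scaffold 22 (169869 to 171888), for which the authors' deposited table lists 347 in B and 124 in A.

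The distance of these genes from the scaffold edge is known only on the first side, where coordinates count from the edge. The first listed gene started between position 163 and position 103613, with a median of 7272.5 bp. It started within 5000 bp on 8 of 20 scaffolds, with 2 calls among these 8 genes and 1 among the other 12. On the first side 3 outermost genes were called and on the last side 6. Of the 40 outermost genes 15 were transcribed toward the edge, 3 of them called, and 25 away from it, 6 of them called.

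Further in, the direction of the calls changed from position to position. Each of the 10 positions had only 4 to 10 calls. The positions named were picked with the values seen, and no test of the pattern was made. Of the calls at positions 4 to 6, B was higher in 13 and A in 4. At position 7 the counts were 7 for B and 3 for A, whereas at position 8 none was higher in B and 5 were higher in A. The 10th genes, the last inside the limit, had 9 calls, 2 with B higher and 7 with A higher, so their counts were close to those of the outermost genes. Their median level was 207 and their median absolute log2 0.65. The 11th genes, just outside it, had 6 calls of 40, a median level of 153 and a median absolute log2 of 0.54. Of the genes at positions 11 to 20 from an edge 14.5% were called, at 21 to 50 15.2%, at 51 to 100 18.1% and farther in 13.9%. The share called thus showed no steady fall with distance from the edge. Small scaffolds do not reach the farther classes, so distance and scaffold size cannot be told apart here.

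**Figure D2:**
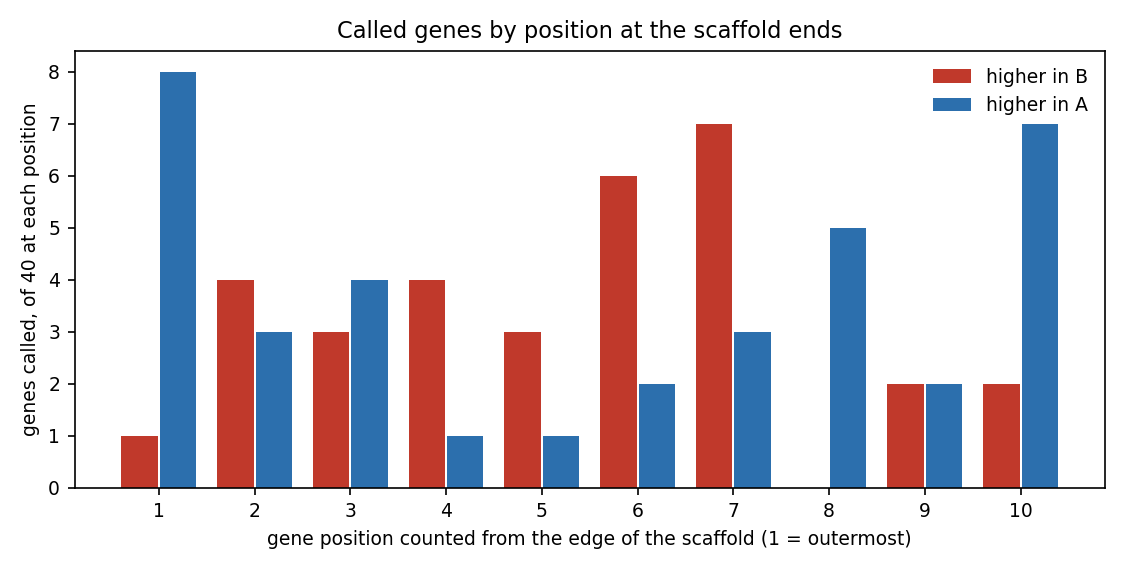
Number of called genes with B higher and with A higher, of the 40 genes at each position counted from the scaffold edge (1 is the outermost). At position 1 the counts are 1 for B and 8 for A, and at position 10 they are 2 for B and 7 for A. At positions 4 to 6 together they are 13 for B and 4 for A. Each position has only 4 to 10 calls, and no test of a change with position was made.

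Single ends varied widely around the pooled values. No gene was called at 9 ends, 1 at 8, 2 at 14, 3 at 5, 4 at 3 and 5 at 1 end. The 9 ends with 3 or more calls held 32 of the 68 calls. Cutting the inner genes of the same scaffolds into 795 windows of 10 neighbouring genes gave no call in 25.2% of them and 3 or more in 19.4%, against 22.5% and 22.5% of the ends. The most calls in 1 window were 5 at the ends and 7 inside. The median level of an end ran from 26.2 to 852 normalized counts, and that of an inner window from 2.12 to 1588. The median absolute log2 of an end ran from 0.15, on the last side of scaffold 2, to 1.49, on the last side of scaffold 22. Among inner windows it ran from 0.06 to 2.73.

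**Figure D3:**
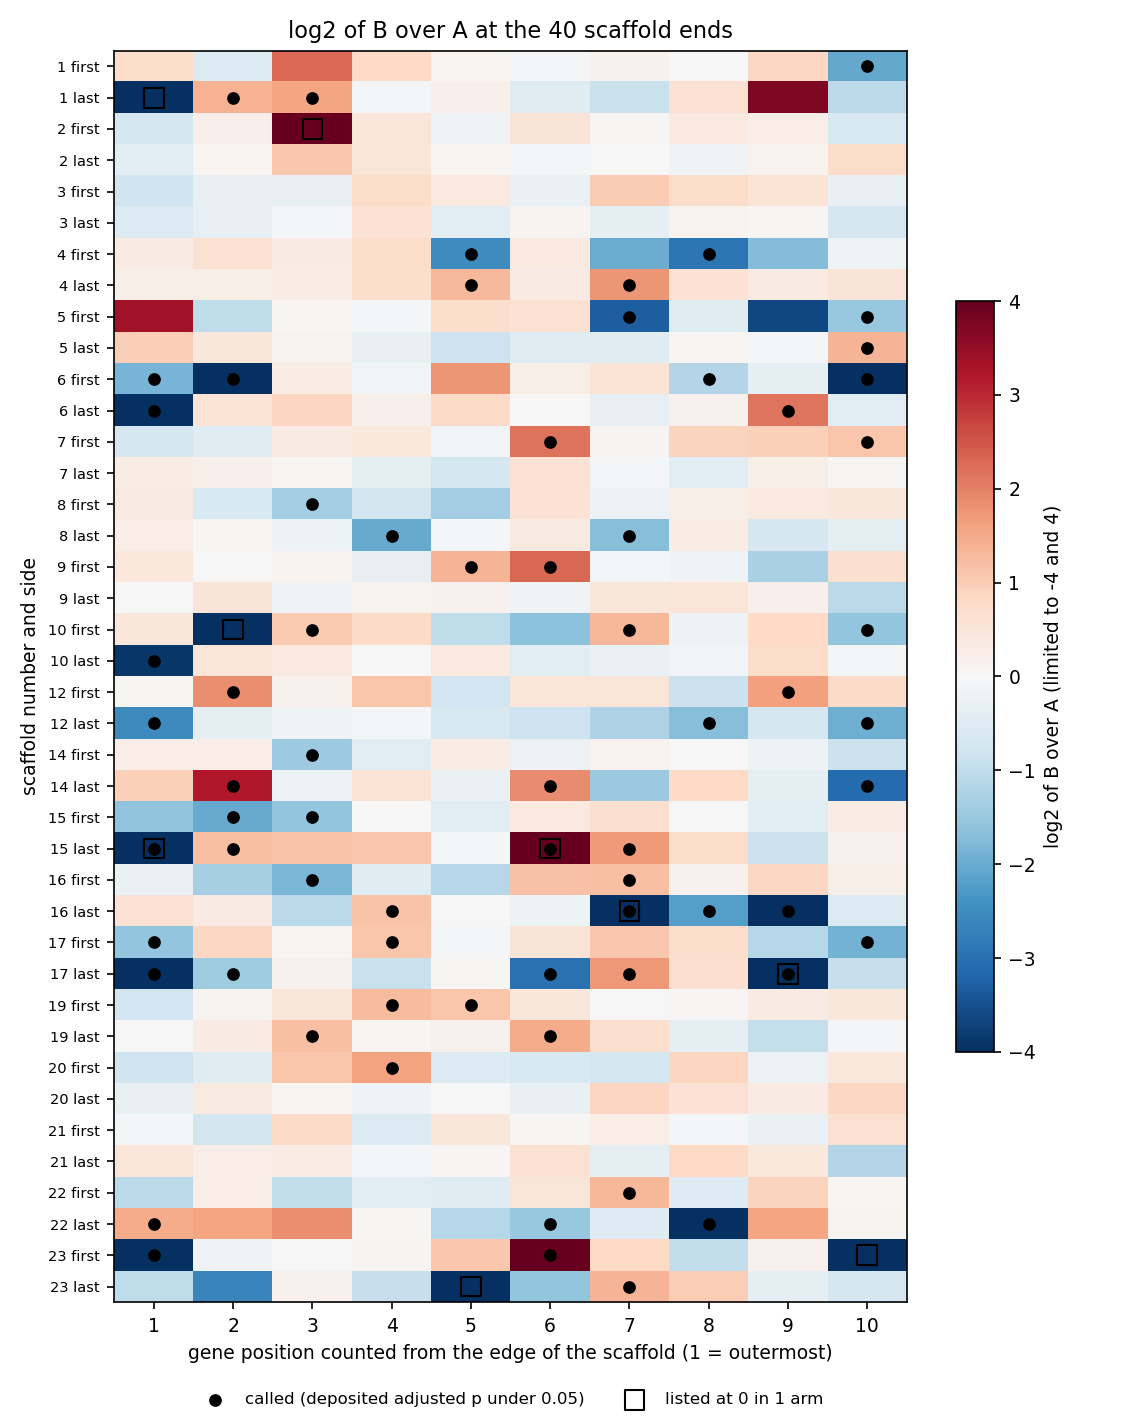
Log2 of B over A for each of the 400 end genes, with 1 line per scaffold end and 10 positions from the edge inward; colours stop at -4 and 4, dots mark called genes and open squares genes listed at 0 in 1 arm. Calls are spread over 31 of the 40 ends, and the last side of scaffold 17 holds the most, 5.

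At 2 ends all 10 genes had their mean difference on the same side, which was the case in 9 of the 795 inner windows (1.13%). On the last side of scaffold 12, all 10 had the lower mean in B, with log2 of B over A from -2.55 to -0.06, and 3 were called. On the last side of scaffold 4, all 10 had the higher mean in B, with log2 from 0.24 to 1.77, and 2 were called. In the authors' deposited table these 2 genes stood at 959 in B and 391 in A (3033355 to 3034648) and at 1277 in B and 376 in A (3023174 to 3026525). The last side of scaffold 17 held 4 calls higher in A and 1 higher in B. The first side of scaffold 6 held 4 calls, all higher in A.

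By scaffold, the share of end genes called was above that of the inner genes in 14 of 20 scaffolds and below it in 6. With 20 end genes per scaffold, the inner share lay within the counting interval of the end share on every scaffold but scaffold 17. On scaffold 17, 8 of 20 end genes were called (40%, 19.1 to 64.0), against 16 of its 88 inner genes (18.2%). That inner share has counting error of its own, which was not taken into account. With 20 intervals read, a miss on a single scaffold can arise from counting error alone. Scaffold 17 is thus not shown to be an exception. On scaffold 6 the shares were 30% of end genes and 14.2% of inner genes. Scaffolds 2, 3 and 21 had no called end gene in 20, which allows a share of up to 16.8%, and their inner shares were 14.2%, 15.6% and 4.55%. On the 11 scaffolds with fewer than 400 genes, 45 of 220 end genes were called (20.5%), against 15.8% of inner genes. On the 9 larger ones, 23 of 180 were called (12.8%), against 14.6% of inner genes. This split of the scaffolds was chosen after the values had been seen. Both sides had calls on 14 scaffolds, 1 side on 3, and neither on scaffolds 2, 3 and 21.

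**Figure D4:**
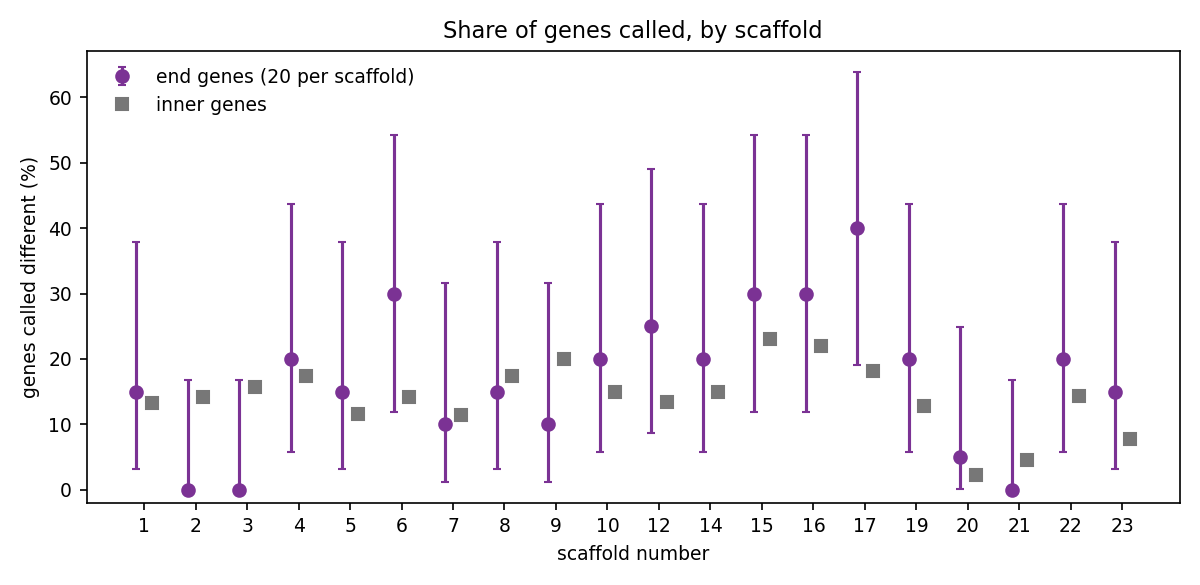
Percent of genes called different by scaffold, for the 20 end genes (circles, with exact binomial 95% intervals for counting) and the inner genes (squares). The end share is above the inner share on 14 of 20 scaffolds, and on scaffold 17 it is 40% against 18.2%. With 20 intervals, counting error alone can leave the inner share outside the interval on a single scaffold.

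Levels also differed between scaffolds in both directions. The end genes of scaffolds 8, 9 and 14 had median levels of 624, 511 and 618, against 164, 174 and 177 for their inner genes. Those of scaffolds 1, 5 and 23 had medians of 83.9, 94.7 and 83.1, against 232, 262 and 306. The end median was the higher on 9 scaffolds and the lower on 11. The first sides had a median level of 170 and the last sides one of 280, with 16.5% and 17.5% of genes called. Gene spacing was alike at the ends and inside, with a median gap between neighbours of 1046.5 bp at the ends and 1033 bp inside. A run of 10 neighbouring genes covered a median of 34.4 kb at the ends and 33.8 kb inside.

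Called end genes that were higher in B tended to be abundant and to differ less, while those higher in A were less abundant and differed more. In the sizes that follow, a gene at 0 in 1 arm is taken at its bound against 3 counts, which applies to 1 end gene higher in B and 3 higher in A. The 32 genes higher in B had a median level of 505 and a median absolute log2 of 1.43, and 6 of them (18.8%) reached 4-fold, against 36.4% of the inner genes called higher in B. For the 36 genes higher in A the median level was 103 and the median absolute log2 was 2.13. Of these, 21 (58.3%) reached 4-fold, against 55.5% of the inner genes called higher in A. Called inner genes showed the same tendency. Their median level was 424 and their median absolute log2 1.71 where B was higher, and 127 and 2.17 where A was higher. Without genes at 0, 8 end genes (2%) were called and differed by 16-fold or more, against 1.53% of inner genes and 1.63% of all genes in the table. With genes at their bound there were 9 at the ends, where B was the higher arm in 1 and A in 8, and among inner genes B was the higher arm in 48 and A in 96.

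Among called genes with a level of at least 50, the largest difference with B the higher arm was at the first side of scaffold 23. The gene fgenesh2_pg.C_scaffold_23000004 (22138 to 22899), the sixth from the edge, had 197 normalized counts in B and 0.641 in A, per the authors' deposited table. The A value is 2 counts in 1 library, so the ratio of 307 has an exact Poisson interval of 84.9 to 2533. Its adjusted p, computed from the edgeR likelihood ratio in the authors' deposited table, was 1.02e-10. The gene second from the last edge of scaffold 14, estExt_Genewise1.C_140511 (920084 to 921126), had 1938 in B and 213 in A in the authors' deposited table, 9.11-fold higher in B, with an edgeR adjusted p of 9.7e-07. Its model overlaps the neighbouring one (917050 to 920088) at the edge only, and that neighbour had a log2 of B over A of -0.21. The strand setting of the counting is not given in the sources used here. The other 8 genes of this kind differed by 3.25-fold to 4.96-fold. Of these, the gene of scaffold 7 (36814 to 39669) was the most abundant, and the authors' deposited table gives it 25542 in B, 5685 in A and a DESeq adjusted p of 0.001.

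The largest differences with A the higher arm were wider. The second gene from the first edge of scaffold 6, e_gw1.6.909.1 (8027 to 9405), was 653-fold lower in B, where it had 5 counts in all (interval for their counting 280 to 2010). Its outer neighbour was the outermost gene described above, also lower in B. The outermost gene of scaffold 23, estExt_Genewise1Plus.C_230002, was 193-fold lower in B, and the edgeR ratio that the authors' deposited table holds gives an adjusted p of 8.84e-43. On that end it lay 5 genes outside the gene with the largest difference in the other direction. The outermost gene on the last side of scaffold 17 was 132-fold lower in B, with an adjusted p of 5.14e-42 from the same edgeR column. The other 7 genes were lower in B by 5.76-fold to 20.6-fold. In the authors' deposited table the tenth gene of the first side of scaffold 6 (53345 to 55325) had 21.2 in B and 437 in A, and the eighth of the last side of scaffold 22 (151130 to 153169) had 7.54 in B and 125 in A. All 10 of these genes were on the minus strand, but of all 36 end genes called higher in A, 20 were (55.6%), against 53.8% of all end genes.

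**Figure D5:**
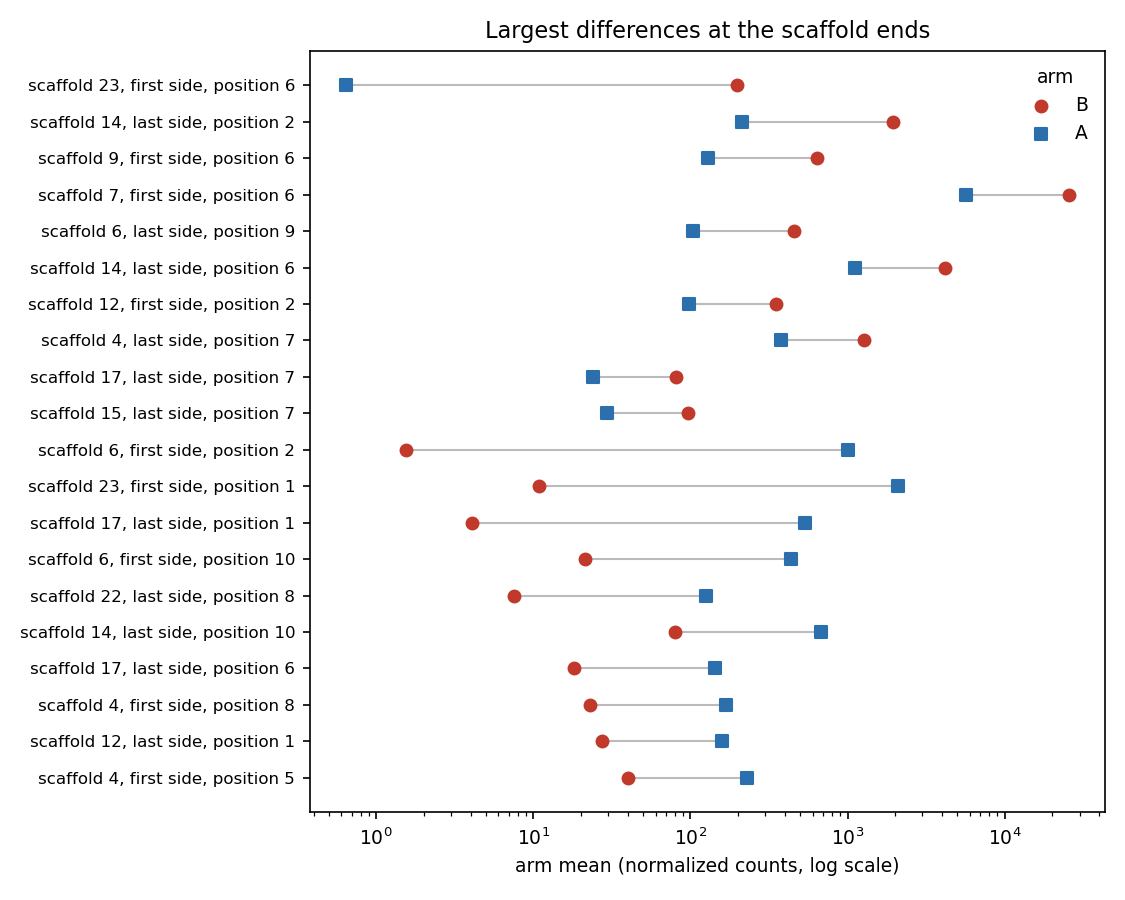
Mean normalized counts (log axis) in B (circles) and A (squares) of the 10 called end genes with the largest fold higher in B (upper 10) and the 10 with the largest fold higher in A (lower 10), taken from genes with a mean level of 50 or more. The lower arm is under 100 in 4 of the upper 10 genes and in all of the lower 10.

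Of the 5 most abundant end genes, 1 was called, the gene of scaffold 7 given above. The most abundant was the fourth gene of the first side of scaffold 12 (12460 to 13118), and the authors' deposited table gives it 46507 in B, 21400 in A and a DESeq adjusted p of 0.170. That 2.17-fold difference did not pass the test by either tool, and the gene held 0.342% of all normalized counts. The second gene of the first side of scaffold 14 (19524 to 22003) had 24407 in B and 20432 in A (authors' deposited table, adjusted p by DESeq 0.896). The second of the first side of scaffold 20 (16372 to 17700) had 13224 in B and 18567 in A (authors' deposited table, adjusted p by DESeq 0.59). The outermost gene on the first side of scaffold 3 (15472 to 17662) had 5902 in B and 10302 in A (authors' deposited table, adjusted p by DESeq 0.368). These 5 genes were chosen by their mean over both arms, so their high level follows from the choice. The lowest arm mean among them was 5685, in A for the gene of scaffold 7. The outermost gene among them, on scaffold 3, started at 15472, so it does not show expression at the very edge.

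Neighbouring end genes were called in the same direction in 9 of 360 pairs (2.50%, 1.15 to 4.69), against 2.72% of the inner pairs. These pairs formed 8 runs, and the longest, of 3 genes, lay on the last side of scaffold 16 (656395 to 667528) and was higher in A. From the edge inward, its genes had 0 in B and 5.89 in A, 411 in B and 1908 in A, and 0.375 in B and 7.71 in A in the authors' deposited table. Overlap of models was found for 3.50% of end genes and 5.70% of inner genes.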

How the data were processed

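Per the submitters' processing notes, the authors used DESeq, edgeR, SAMtools, HTSeq, TopHat2 2.1.1, cutadapt 1.3 and FastQC 0.11.4, whose roles and order are not stated there. The strand setting, annotation and genome build are not given in sources used here, and coordinates are those of the authors' deposited table. Per the file headers, the authors' DESeq columns give a mean of counts divided by size factors, for each arm and for both, then a fold ratio of B over A, and p-values before and after adjustment. Per the file headers, the authors' edgeR columns hold the log2 of B over A, the average in log2 CPM, a likelihood ratio as a score, and p-values with their false discovery rate. The deposited p-values have 4 decimals. Where one is listed at 0, the adjusted p was computed from the likelihood ratio that the authors deposited from edgeR, with 1 degree of freedom and the Benjamini-Hochberg method over all 9280 genes.

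Log2 of B over A was computed from the arm means, for genes with both means above 0. Per-library values were not used here, so no SD over libraries can be given and the depth per library is unknown. The arm means summed to 10507386 normalized counts in B and 9331506 in A. Means under 3 were whole multiples of the worths of 1 count in 3 libraries, within 0.0004, for 500 of 501 genes in B and 425 of 425 in A. The floor of 3 counts over an arm was a mean of 1.15 in B and 0.961 in A. Intervals are exact binomial or Poisson intervals, or order statistics for medians, at 95%, and cover counting error only.

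The members and lists were chosen with earlier results of these data known. Named genes were, among called end genes with a mean of at least 50, the 10 with the largest fold in each direction, plus the 5 most abundant end genes. At most 2 gene IDs per direction are printed. Alternatives were the authors' edgeR calls, stricter p and fold limits, other numbers of genes per end, and other scaffold and level limits. Further ones were pseudocounts, equal arm totals and leaving out each scaffold. Scaffolds were also weighted equally, by taking the median of the values per scaffold. The medians and intervals were tested on simulated data (20 sets). Python 3.11.15, pandas 2.3.3, numpy 2.4.6, scipy 1.17.1 and matplotlib 3.10.9 were used.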

Additional observations from a re-analysis of the deposited data

How the results depend on the processing

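The share of end genes called was 22.0% by edgeR (inner genes 21.3%), 9.5% at a DESeq adjusted p under 0.01 (inner 9.42%) and 6.75% with a 4-fold limit added, genes at 0 included (inner 6.89%). The share of called end genes higher in B was 34.2% at an adjusted p under 0.01 (38 calls, inner 47.4%) and 22.2% with the 4-fold limit (27 calls, inner 37.1%). The median absolute log2 was 0.43 with a pseudocount of 10 (inner 0.42). Leaving out each scaffold in turn gave an end share of 15.8% to 17.9%, a difference from inner genes of 0.994 to 3.16 percentage points, a ratio of median levels of 0.975 to 1.10, a median absolute log2 of 0.48 to 0.53 and a share higher in B of 43.8% to 50.0%. Over the other alternatives the difference in share ran from -0.143 points, with the 4-fold limit, to 4.20, with scaffolds weighted equally. The ratio of median levels ran from 0.867, with scaffolds weighted equally, to 1.06. The causes were not tested. The outermost genes called were 12 by edgeR (2 higher in B), 8 at an adjusted p under 0.01 (1 higher in B), 5 of 28 with a mean of at least 50 (1 higher in B) and 10 of 46 with scaffolds 11, 13 and 18 (1 higher in B). Of the named genes, 2 called higher in B, on scaffolds 15 and 17, lost their call at 0.01, and none changed direction. No paired analysis was possible because the table holds arm means and no value per library, and for the same reason no library could be left out and no other normalization of counts could be run. With 40 outermost genes, counting error alone gives their share called an interval of 10.8% to 38.5%.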

Other observations

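The scaffolds outside the rule are given as separate sets. At the ends of scaffolds 11, 13 and 18, 15 of 60 genes were called (25.0%, 14.7 to 37.9), against 17.0% of the inner genes of those 3 scaffolds. On the 41 scaffolds under the size limit, 11 of 187 genes were called (5.88%, 2.97 to 10.3), with a median level of 426 normalized counts. In all genes the share was 15.0%. By edgeR the share was 33.3% of those 60 end genes, 13.9% of genes on the small scaffolds and 21.4% of all genes.

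The edgeR average in the authors' deposited table exceeded the average implied by the arm means by more than 1 on the log2 scale for 3 of 254 end genes with a mean of at least 100 (1.18%), against 22 of 5350 inner genes (0.411%). The 3 genes lay on the first side of scaffold 14 (13161 to 13470, by 2.81, and 19524 to 22003, by 2.52) and on the first side of scaffold 9 (20272 to 21925, by 1.25). In the authors' deposited table these genes had 174 in B and 145 in A, 24407 in B and 20432 in A, and 661 in B and 256 in A, in that order.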
